A study of Mus musculus with 15 samples.

Results

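Nodal and activin signalling was described through 9 genes across 15 mouse samples on an expression array. The 9 genes were found by matching the Entrez Gene ID that names each probe set to the mouse symbols Nodal, Gdf3, Lefty1, Lefty2, Tdgf1, Acvr1b, Acvr2a, Acvr2b and Foxh1. All 9 of 9 had a probe set among the 25206 on the array. The samples follow an induced pluripotent stem cell (iPSC) line with the reporter Acta2hrGFP, a green fluorescent protein (GFP) that marks cells using the smooth muscle actin gene Acta2. There were 3 samples in each of 5 groups. The groups were undifferentiated iPSC (day 0), Kdr+ cells taken at day 5 (Kdr, also called Flk-1, is a receptor of early mesoderm), the GFP- and the GFP+ fraction of day 13, and primary GFP+ smooth muscle cells of mouse aorta. All groups carry the reporter. The sources used here state no strain, mouse age, medium or number of iPSC clones. By their labels these are biological triplicates, with nothing on how the cultures were kept apart, so p-values rest on the spread between these samples, which may be partly technical.

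Nodal is a secreted ligand of the TGF-beta superfamily. It binds a type II activin receptor (Acvr2a or Acvr2b) and the type I receptor Acvr1b, and it needs a membrane-anchored co-receptor such as Cripto, the product of Tdgf1. The receptors phosphorylate Smad2 and Smad3, which join Smad4 and act in the nucleus with partners such as Foxh1. The Lefty proteins are secreted antagonists that are themselves targets of the pathway, and activins use the same receptors without the co-receptor. In the embryo the pathway patterns the epiblast and is needed for the primitive streak, mesoderm and endoderm.

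The values are log2 expression values on the scale of RMA, the normalization used by the authors. They compare a gene between samples, but not 1 gene with another. The sample medians lay between 4.08 and 4.29, and the number of arrays, 3 per group, limits the precision. The sources used here hold no calls of presence, so levels near or under these medians are not shown to lie above background. Pluripotency markers averaged 7.99 to 8.10 in the day 0 samples and 3.06 to 4.34 in all others, and early mesoderm markers averaged 8.36 to 8.54 at day 5 and 3.60 to 4.93 elsewhere. Smooth muscle markers averaged 10.62 to 10.79 in aortic cells and 7.45 to 7.63 in day 13 GFP+ cells. Among them Myh11, the myosin heavy chain of mature smooth muscle, stood at a mean of 4.64 in GFP+ cells against 11.03 in the aorta. In bulk samples such as these, fewer cells of a type and less RNA per cell cannot be told apart.

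Promoter sequences are given first for 3 genes that differ in how far they moved: Tdgf1, which had the widest span of the 9, Nodal, and the receptor gene Acvr2a, whose group means spanned only 0.77. They come from RefSeq (mouse build GRCm38.p6, 250 bases before to 50 after the gene start, read 5′ to 3′ on the gene's strand), where 5 of the 9 genes had an entry. Capitals mark CG dinucleotides.
Tdgf1: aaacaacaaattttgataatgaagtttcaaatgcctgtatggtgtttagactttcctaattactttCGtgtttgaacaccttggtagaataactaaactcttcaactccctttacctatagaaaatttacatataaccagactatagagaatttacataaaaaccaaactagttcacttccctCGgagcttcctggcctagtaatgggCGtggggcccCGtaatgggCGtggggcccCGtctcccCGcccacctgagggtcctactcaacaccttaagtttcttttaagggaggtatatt
Nodal: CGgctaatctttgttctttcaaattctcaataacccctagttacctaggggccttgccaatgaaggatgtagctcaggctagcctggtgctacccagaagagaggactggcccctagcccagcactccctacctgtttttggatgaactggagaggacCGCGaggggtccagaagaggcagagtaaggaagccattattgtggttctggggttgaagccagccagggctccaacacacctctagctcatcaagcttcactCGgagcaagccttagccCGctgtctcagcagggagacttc
Acvr2a: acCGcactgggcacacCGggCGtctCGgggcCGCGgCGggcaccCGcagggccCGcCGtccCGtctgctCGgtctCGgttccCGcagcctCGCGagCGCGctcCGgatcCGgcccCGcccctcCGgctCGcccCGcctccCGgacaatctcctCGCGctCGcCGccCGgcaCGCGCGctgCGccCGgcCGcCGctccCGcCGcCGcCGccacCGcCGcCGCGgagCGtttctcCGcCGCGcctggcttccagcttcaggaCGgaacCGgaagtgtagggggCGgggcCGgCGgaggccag

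The Tdgf1 window lies at chr9:110946109-110946408 on the minus strand, Nodal at chr10:61417722-61418021 on the plus strand and Acvr2a at chr2:48813859-48814158 on the plus strand. The Tdgf1 promoter held 7 CG dinucleotides (41.7% G or C) and that of Nodal 5 (54.0%). The receptor promoters were denser, with 54 in Acvr2a (80.3%), 51 in Acvr1b (79.7%) and 27 in Acvr2b (73.3%). The median over the promoters of the table was 7 CG dinucleotides and 52.7% G or C. The FOXH1 motif AATNCACA was in 0 of the 5 windows on either strand, and in 3.60% of all promoters of this length. The SMAD motif CAGAC was in 3 of 5 on either strand, in Tdgf1 (first base at -113 from the start), in Acvr2a (-188) and in Acvr2b (-233), and in 49.6% of all promoters. A match or its absence describes only these letters in this window.

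**Figure D1:**
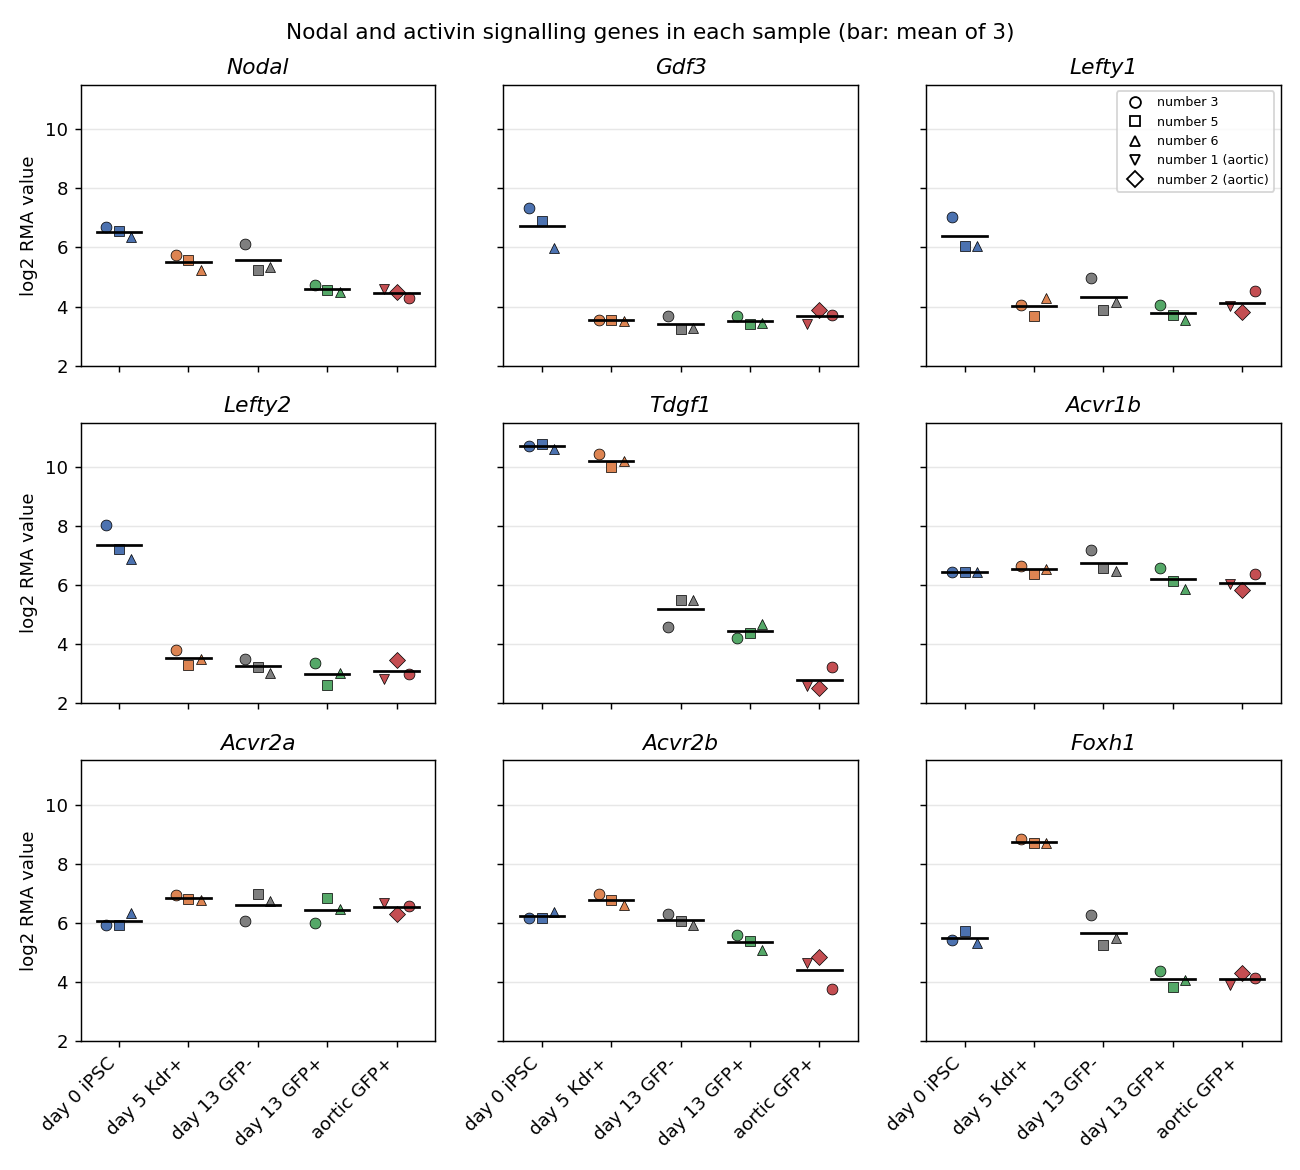
Log2 RMA values (vertical axis) of the 9 genes in the 15 samples, by group (horizontal axis), with points shaped by the sample's number and bars at the mean of 3. Gdf3, Lefty1 and Lefty2 are high only in the day 0 samples, Tdgf1 is high at days 0 and 5, Foxh1 is highest at day 5 and Acvr1b and Acvr2a stay between 5.83 and 7.19.

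The ligand gene Nodal (probe set 18119_at) fell from day 0 to the last stages in steps. Its values were 6.70, 6.56 and 6.35 in day 0 iPSC, 5.74, 5.56 and 5.25 at day 5, 6.13, 5.24 and 5.34 in day 13 GFP- cells, 4.73, 4.55 and 4.50 in GFP+ cells and 4.60, 4.49 and 4.28 in the aorta. The order of the means was day 0 (6.54), GFP- (5.57), day 5 (5.52), GFP+ (4.60) and aorta (4.45). The day 0 samples lay above all others, and GFP- sample 3 reached above the day 5 samples. The neighbours GFP- and day 5 did not pass the test (limma adjusted p = 0.918), nor did GFP+ and aorta (adjusted p = 0.62). Of the 10 pairs of groups, 8 passed the threshold of 0.05 for Nodal, and the widest, aorta against day 0, came to -2.08 on the log2 scale (4.23-fold, SE 0.203, with adjusted p = 2.88e-07).

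Gdf3 (14562_at), a ligand of the same family known from pluripotent cells, was high at day 0 alone. Its values at day 0 were 7.35, 6.90 and 5.98, the widest spread of any gene of the 9 in any group (SD 0.7). At day 5 they were 3.56, 3.54 and 3.53. All 12 samples after day 0 lay between 3.25 and 3.88, below the lowest day 0 sample. The fall from day 0 to day 5 was 9.19-fold (log2 -3.20, SE 0.251, adjusted p = 8.33e-08), and no pair among the 4 later groups passed. GFP- sample 3 and GFP+ sample 3 had the identical Gdf3 value of 3.67.

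The antagonist genes Lefty1 (13590_at) and Lefty2 (320202_at) showed the same division. Lefty2 stood at 8.04, 7.22 and 6.87 at day 0 and at 3.80, 3.29 and 3.49 at day 5. It then lay between 2.62 and 3.49 in the 9 samples of day 13 and the aorta. The fall at day 5 was 14.4-fold (log2 -3.85, SE 0.272, adjusted p = 2.52e-08). Lefty1 was 7.03, 6.07 and 6.06 at day 0 and 4.05, 3.69 and 4.29 at day 5, a fall of 5.19-fold (log2 -2.38, SE 0.299, adjusted p = 1.41e-05). In the 9 samples of day 13 and the aorta Lefty1 lay between 3.55 and 4.97. It was highest in GFP- sample 3 (4.97), while the other GFP- samples had 3.89 and 4.14. For both genes the 4 pairs with day 0 passed and the 6 pairs among later groups did not. The genes are close relatives that lie near each other on chromosome 1, with 2 other annotated genes between them, and how far their probes tell them apart was not analysed here.

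Tdgf1 (21667_at), the co-receptor gene, kept a high level for longer than the ligands and the Lefty genes. It was 10.71, 10.79 and 10.60 at day 0 and 10.46, 9.99 and 10.21 at day 5. These groups did not overlap, but the difference of -0.48 (95% interval -0.99 to 0.02) did not pass in the fit of all 15 samples (limma adjusted p = 0.159). The fit of the 2 groups alone gave adjusted p = 0.023 for this difference, and array weights gave 0.015. At day 13 Tdgf1 was 4.59, 5.50 and 5.50 in GFP- cells and 4.23, 4.39 and 4.69 in GFP+ cells, and in the aorta 2.58, 2.54 and 3.23. Every later sample thus lay over 4 log2 units below every day 0 and day 5 sample, and the aortic samples lay lowest. Against day 5 the aortic level was 173-fold lower (log2 -7.44, SE 0.238, adjusted p = 8.95e-13) and against day 0 it was 242-fold lower (adjusted p = 4.43e-13). In both of these pairs Tdgf1 ranked 1 of 25206 by decrease. The aortic level lies under every sample median and is not shown to lie above background, so these folds and ranks describe the deposited values. The RefSeq table also lists pseudogenes of Tdgf1, and whether probes match them was not analysed here.

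The receptor genes Acvr1b and Acvr2a had the narrowest spans of group means among the 9. Acvr1b (11479_at), the type I receptor for Nodal and activin, was 6.44, 6.45 and 6.44 at day 0, 6.67, 6.39 and 6.54 at day 5, 7.19, 6.59 and 6.50 in GFP- cells, 6.59, 6.14 and 5.89 in GFP+ cells and 6.04, 5.83 and 6.37 in the aorta. Its group means spanned 0.68, and of the 10 pairs only aorta against GFP- passed (-0.68, adjusted p = 0.0123). The difference between day 5 and day 0 was 0.09 with a 95% interval of -0.34 to 0.52. Acvr2a (11480_at), a type II receptor, was 5.92, 5.93 and 6.35 at day 0 and 6.95, 6.80 and 6.77 at day 5, above every day 0 sample. In GFP- cells it was 6.06, 6.96 and 6.76, in GFP+ cells 5.99, 6.83 and 6.47 and in the aorta 6.69, 6.31 and 6.57. The rise at day 5, 0.77 (1.71-fold, SE 0.23, adjusted p = 0.018) was the only one of its 10 pairs to pass. It lost the call under repeated quantile normalization (adjusted p = 0.053), cyclic loess (0.0615) and without day 0 sample 3 (0.0652), day 0 sample 5 (0.0693) or day 5 sample 3 (0.0647).

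Acvr2b (11481_at), the other type II receptor, declined across the later stages. Its values were 6.16, 6.18 and 6.38 at day 0, 6.99, 6.76 and 6.62 at day 5, 6.29, 6.07 and 5.92 in GFP- cells, 5.58, 5.40 and 5.09 in GFP+ cells and 4.65, 4.85 and 3.77 in the aorta. The day 0 and GFP- samples overlapped each other, and 7 of 10 pairs passed. The aortic level was 5.15-fold below that of day 5 (log2 -2.37, SE 0.224, adjusted p = 2.21e-07). The difference of day 5 from day 0, 0.55, had adjusted p = 0.0831 in the fit of all samples, 0.00876 in the fit of the 2 groups alone and 0.0446 after median centring.

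Foxh1 (14106_at), the transcription factor that brings Smad complexes to DNA, had its peak at day 5. It was 5.41, 5.74 and 5.32 at day 0 and 8.82, 8.69 and 8.71 at day 5. In day 13 GFP- cells it was 6.28, 5.24 and 5.49, in GFP+ cells 4.36, 3.82 and 4.07 and in the aorta 3.88, 4.31 and 4.15. The day 5 samples lay above all others, and the GFP- samples overlapped those of day 0 (difference 0.18, interval -0.30 to 0.65). GFP+ and aortic samples overlapped each other and lay below all day 0 samples. The rise at day 5 was 9.53-fold (log2 3.25, SE 0.223, adjusted p = 1.85e-08). GFP+ cells were 2.65-fold below day 0 (adjusted p = 8.67e-05). Of the pairs outside the 5 comparisons below, which complete the 10, 34.0% of all probe sets passed for GFP- against day 0, 37.5% for GFP+ and 47.7% for aorta against day 0, 46.0% for aorta against day 5 and 41.9% for aorta against GFP-.

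**Figure D2:**
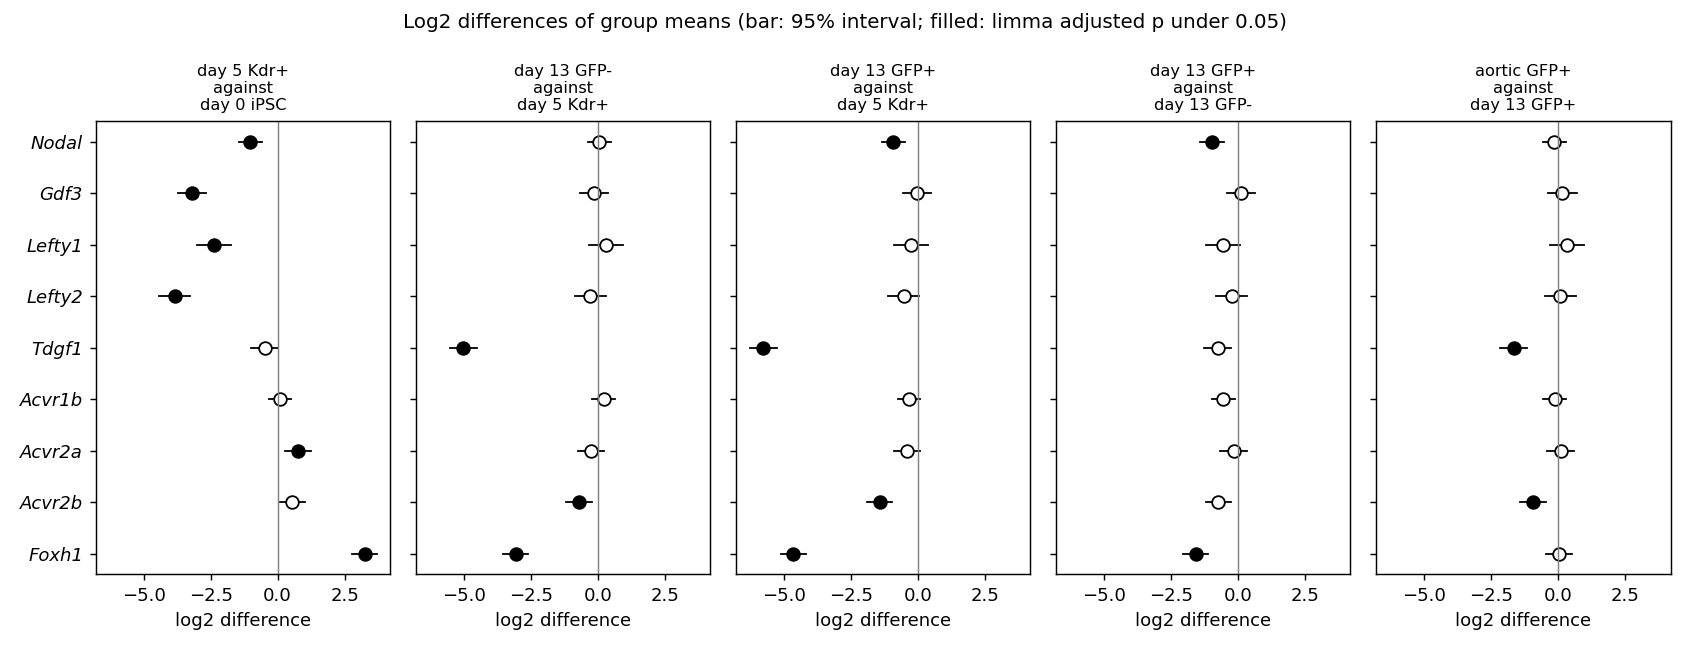
Log2 differences between group means (horizontal axis) for the 9 genes in the 5 comparisons, with 95% intervals as bars and filled points where the limma adjusted p was under 0.05. At day 5 Foxh1 lies to the right of 0 at 3.25 and Lefty2 to the left at -3.85, and at day 13 the largest shifts are those of Tdgf1 and Foxh1.

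The comparison of day 5 Kdr+ cells with day 0 follows the pathway from pluripotent cells into mesoderm. Nodal, Gdf3, Lefty1 and Lefty2 fell, which is 4 of the 9 genes. Foxh1 and Acvr2a rose, and the 3 genes Tdgf1, Acvr1b and Acvr2b stayed short of the threshold. Over all probe sets 28.8% passed in this comparison, 14.9% higher and 13.9% lower. The groups did not overlap for 8 of the 9, against 46.0% of all probe sets. The median change of the 9 was -0.48 and that of all probe sets -0.01. The 6 pluripotency markers all fell in the same comparison and the 6 early mesoderm markers all rose, and their part in these changes was not tested.

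Among 42 other measured genes of the pathway, 20 rose and 4 fell at day 5, against 14.9% and 13.9% of all probe sets. Of 10 genes known as targets of Nodal signalling, 8 rose and 2 did not pass, with the streak and mesoderm factors Mixl1 (from 3.70 to 10.87, log2 change 7.17) and Eomes (from 4.63 to 9.88) and the organiser gene Lhx1 (from 3.39 to 8.09) changing most. The targets Mixl1, T and Mesp1 are also among the early mesoderm markers, so these counts are not independent. Lefty1 and Lefty2, described above as targets of the pathway too, are outside this list of 10 genes. Both fell at day 5 (log2 -2.38 and -3.85), so the count of 8 does not cover every known target. Of 12 transducers and nuclear regulators 6 rose, led by the Smad anchor Zfyve9 (0.87), the shared Smad gene Smad4 (0.81) and Smad3 (0.75), and 0 fell. Smad2 (0.49) and Smad7 (0.55) also rose but lost the call under cyclic loess. Of 5 receptors and co-receptors 3 rose, the Cripto relative Cfc1 to a mean of 5.92 (3.79-fold), the BMP and activin receptor Acvr1 (3.01-fold) and Tgfbr1 (2.26-fold). Of 7 ligand genes, the activin subunit genes Inhba (-1.40) and Inhbb (-1.10) fell and Gdf11 rose (0.65). The day 5 levels of Inhba (2.68) and Inhbb (3.91) lie under the sample medians and are not shown to lie above background. Of 8 inhibitor and processing genes, Bambi, a receptor without kinase activity, rose 5.53-fold and the activin-binding Fst 2.96-fold, while Pcsk6, a proprotein convertase that can process Nodal, fell 7.19-fold and the follistatin relative Fstl3 1.78-fold.

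**Figure D3:**
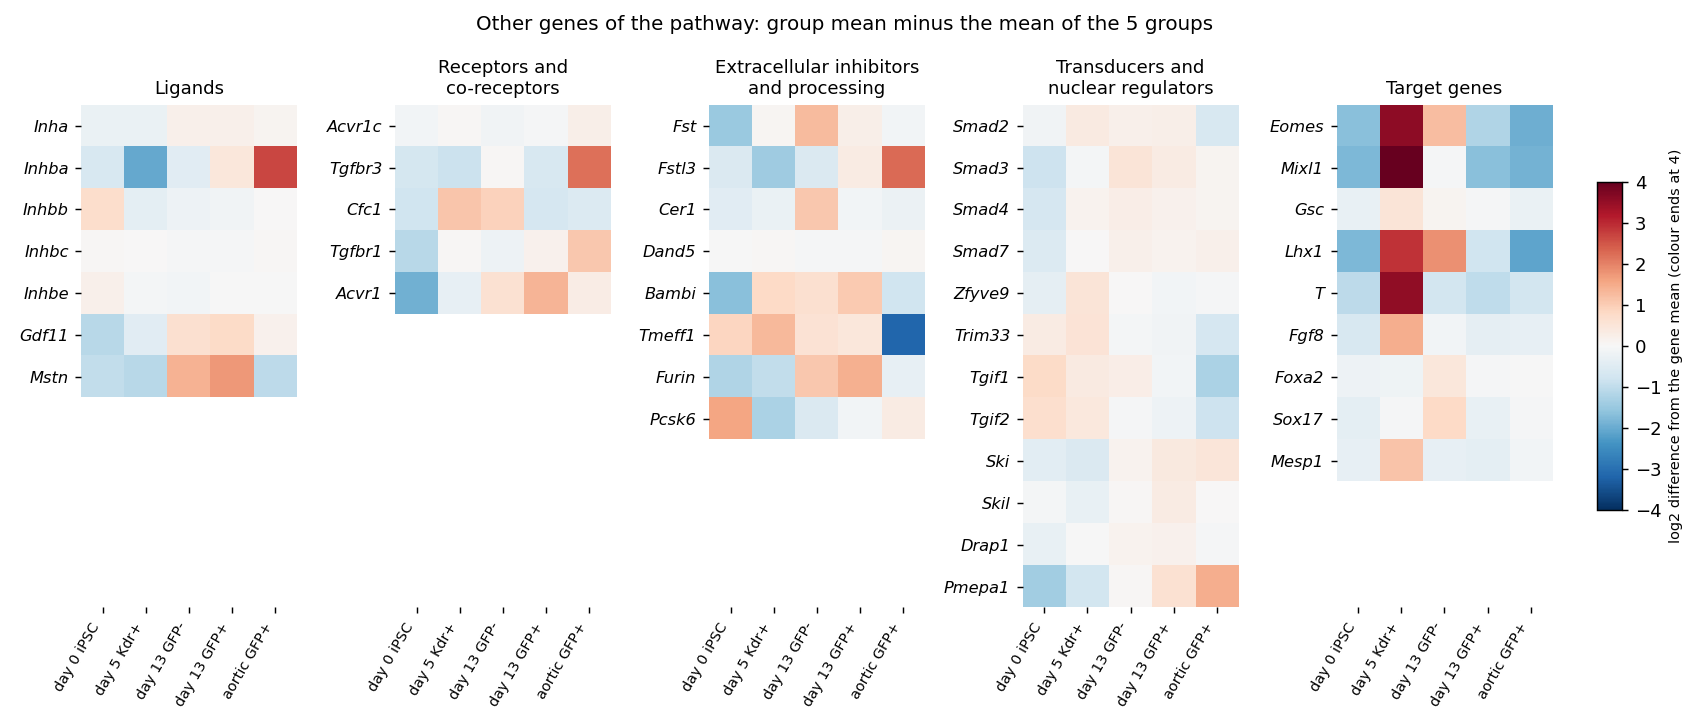
Group means of the other pathway genes (rows, by role, with 1 gene not shown) in the 5 groups (columns), each as the log2 difference from that gene's mean over the groups, with red higher and blue lower and the colour scale ending at 4. The target genes Eomes, Mixl1, Lhx1 and T are red at day 5, and Inhba and Fstl3 are red in the aorta.

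Each day 13 sort was compared with the day 5 cells, which are the reference of both comparisons. In GFP- cells 3 of the 9 genes fell and 0 rose: Tdgf1 (32.5-fold, log2 -5.02, SE 0.238), Foxh1 (8.42-fold, log2 -3.07, SE 0.223, adjusted p = 6.73e-08) and Acvr2b (1.62-fold, log2 -0.69, adjusted p = 0.0306). Over all probe sets 13.9% fell and 12.0% rose, 26.0% in all. The groups did not overlap for 3 of the 9, against 39.6% of all probe sets, and the median change of the 9 was -0.25 against -0.03 over all. The Acvr2b call ended under repeated quantile normalization (adjusted p = 0.0618), cyclic loess (0.0504) and without day 5 sample 3 (0.123), day 5 sample 5 (0.0693), GFP- sample 5 (0.0779) or GFP- sample 6 (0.113). The Nodal difference between GFP- and day 5 cells was 0.05 (interval -0.38 to 0.49), and without GFP- sample 3 the difference was -0.23. In GFP+ cells 4 of the 9 fell and 0 rose: Tdgf1 (55-fold, log2 -5.78), Foxh1 (25.2-fold, log2 -4.66), Acvr2b (2.7-fold, log2 -1.43, SE 0.224, adjusted p = 9.63e-05) and Nodal (1.89-fold, log2 -0.92, SE 0.203, adjusted p = 0.00201). Over all probe sets 16.9% fell and 14.3% rose, 31.2% in all. The groups did not overlap for these 4 of the 9, against 45.3% of all probe sets, and the median change of the 9 was -0.52. Tdgf1 ranked 3 of 25206 by decrease in GFP- cells and 2 in GFP+ cells, and Foxh1 ranked 24 and 6. The GFP+ levels of Foxh1 (4.09) and Tdgf1 (4.44) lie near the sample medians and are not shown to lie above background. Cell-type markers moved in the same comparisons. All 6 early mesoderm markers fell in each sort, from averages of 8.36 to 8.54 at day 5 to 4.70 to 4.93 in GFP- and 4.56 to 4.74 in GFP+ cells. In GFP- cells all 6 endoderm markers rose (4.06 to 4.13 at day 5 against 5.80 to 6.07), as did all 5 endothelial markers (3.40 to 3.91 against 5.36 to 5.47) and 6 of 8 smooth muscle markers. In GFP+ cells 8 of 8 smooth muscle markers and 1 of 5 endothelial markers rose, 0 of 6 endoderm markers passed and 3 of 5 epithelial markers fell. In each sort 4 of 6 fibroblast markers rose. The part of these markers in the falls of Tdgf1, Foxh1, Acvr2b and Nodal was not tested.

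The other pathway genes divided by role at day 13. In GFP- cells 14 of the 42 rose and 8 fell, against 12.0% and 13.9% of all probe sets. In GFP+ cells 10 rose and 12 fell, against 14.3% and 16.9%. Of the 10 target genes 6 fell in each sort. Mixl1 (-5.42 in GFP- and -7.04 in GFP+ cells), T (-4.26 and -4.56) and Eomes (-2.36 and -4.79) changed most. In GFP- cells Sox17 and Foxa2, both endoderm factors also counted among the endoderm markers, rose (0.84 and 0.63). Of the 7 ligand genes 3 rose in GFP- and 4 in GFP+ cells, and 0 fell. Mstn, which encodes myostatin, rose from 1.96 to 4.44 and 4.80 with a wide spread in each sort (2.71 to 5.47 and 2.98 to 5.75), Inhba from 2.68 to 4.27 and 5.16, and Gdf11 from 4.88 to 6.00 and 6.10. The day 5 levels of Mstn and Inhba lie under the sample medians and are not shown to lie above background. Inha, the inhibin subunit gene, rose in GFP+ cells (0.46) but lost the call after median centring and repeated quantile normalization. The convertase gene Furin rose 4.12-fold and 5.2-fold, and Fstl3 1.8-fold and 3.33-fold. In GFP- cells the antagonist gene Cer1 rose 2.56-fold and Fst 2.3-fold. Tmeff1, a membrane protein that binds Cripto, fell in each sort (-0.70 and -0.84). Among the nuclear regulators Pmepa1, a target that limits Smad signalling, rose in each sort (1.73-fold and 2.56-fold), as did the corepressor gene Ski (0.72 and 0.99). Smad3 rose in GFP- cells (0.60) and the corepressor gene Tgif2 fell in GFP+ cells (-0.63). Trim33 also fell in GFP+ cells, from a mean of 7.64 to 6.96, but lost the call under repeated quantile normalization and cyclic loess. Of the receptor list Acvr1 rose in each (0.94 and 1.67), while Tgfbr3 rose in GFP- cells (0.90) and Cfc1 fell in GFP+ cells (-1.78).

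The direct comparison of the day 13 sorts asks what goes with reporter activity. Foxh1 was lower in GFP+ than in GFP- cells by 1.58 on the log2 scale (3-fold, SE 0.223, adjusted p = 0.000631) and Nodal by 0.97 (1.96-fold, SE 0.203, adjusted p = 0.0107), so both were lower and the other 7 genes of the 9 stayed short of the threshold, with 0 higher. Over all probe sets 2.52% were lower in GFP+ cells, 2.02% were higher and 4.53% passed in all. The groups did not overlap for 3 of the 9 (Foxh1, Nodal and Acvr2b), against 19.5% of all probe sets. Without GFP- sample 3, the highest of the GFP- samples for both genes, Foxh1 was lower by 1.28 (adjusted p = 0.00102) and Nodal by 0.69 (adjusted p = 0.0278). The Nodal call ended without GFP+ sample 6 (adjusted p = 0.0524) and in the fit of the 2 groups alone (0.103). Without GFP- sample 3, Tdgf1 passed (adjusted p = 0.00922), and without GFP+ sample 3, Acvr1b passed (0.0496).

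Samples of the same number in the day 13 sorts deviated together from their group means, so the comparison was also made within numbers. Numbers 5 and 6 also deviated alike across the sorts, so their pairing is less certain than that of number 3. With the replicate block 5 of the 9 genes were lower in GFP+ cells, against 4.30% of all probe sets lower, 4.15% higher and 8.45% in either direction. They were Foxh1 (adjusted p = 0.000855), Acvr2b (-0.74, adjusted p = 0.00646), Nodal (adjusted p = 0.0084), Acvr1b (-0.55, adjusted p = 0.0201) and Tdgf1 (-0.76, adjusted p = 0.0217). Acvr2b differed by -0.71, -0.66 and -0.83 in numbers 3, 5 and 6, and without the block had adjusted p = 0.0845. Acvr1b differed by -0.60, -0.45 and -0.61 and had adjusted p = 0.164 without the block. Foxh1 differed by -1.91, -1.42 and -1.41, and Nodal by -1.40, -0.69 and -0.83. In all 3 numbers 7 of the 9 genes were lower in GFP+ cells, the exceptions being Lefty2, which was higher by 0.02 in number 6, and Gdf3. The share of all probe sets lower in all 3 numbers is not given here, so this count has no baseline.

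**Figure D4:**
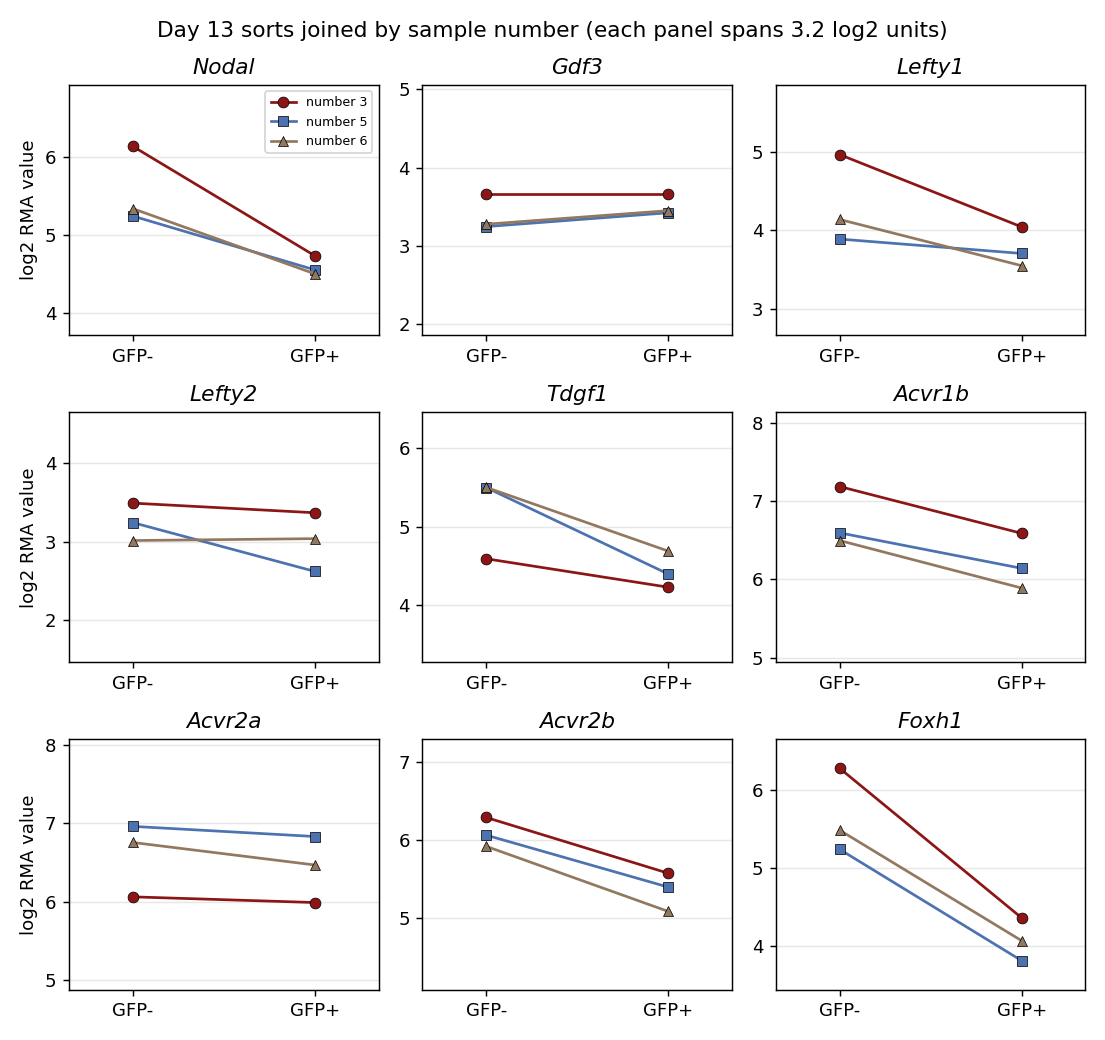
Log2 RMA values (vertical axis) of the 9 genes in the GFP- and GFP+ sorts of day 13 (horizontal axis), with a line joining the samples of each number. The lines of Foxh1, Nodal, Acvr1b and Acvr2b all fall from GFP- to GFP+, and number 3 is the highest line or the lowest in every panel.

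The number also ordered the values within each sort. Number 3 was the highest of the 3 samples in both sorts for 7 of the 9 genes and the lowest in both for the remaining 2, Tdgf1 and Acvr2a. The share of all probe sets ordered in this way is not given here. Across all probe sets number 3 deviated from its group mean alike in both sorts (correlation 0.597). The shared deviation of number 3 is thus not particular to the 9 genes. It deviated opposite to numbers 5 and 6 of the other sort (-0.42 to -0.50). Deviations from a mean of 3 samples sum to 0 for each gene. These negative values therefore partly follow from the shared deviation of number 3 and add little to it. For Acvr2a number 3 stood at 6.06 and 5.99 in the GFP- and GFP+ sorts, against 6.47 to 6.96 in numbers 5 and 6. What the numbers stand for is not stated in the labels.

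Markers of other cell types differed between the sorts as well. All 6 endoderm markers were lower in GFP+ cells, where they averaged 4.21 to 4.36 against 5.80 to 6.07 in GFP- cells. All 5 epithelial markers were lower too (4.92 to 5.36 against 6.87 to 7.06), as were 3 of 5 endothelial markers (4.39 to 4.58 against 5.36 to 5.47). Their part in the differences of Foxh1 and Nodal was not tested. Acta2 itself, the gene of the reporter, was 11.32 in GFP+ and 10.67 in GFP- cells on average (0.65, adjusted p = 0.151). Of the 42 other pathway genes 8 were lower and 4 higher in GFP+ cells, against 2.52% and 2.02% of all probe sets. The 5 target genes Lhx1 (-2.61), Eomes (-2.43), Mixl1 (-1.63), Sox17 (-1.10) and Foxa2 (-0.52) were lower, as were Cfc1 (-1.59), the Nodal antagonist gene Cer1 (-1.18) and Tgfbr3 (-0.69). Sox17 and Foxa2 are also among the 6 endoderm markers counted above. Inhba (0.90), Fstl3 (0.89), Acvr1 (0.73) and Pmepa1 (0.57) were higher. The count of 12 was 7 without GFP+ sample 5, 6 without GFP+ sample 6 and 5 in the fit of the 2 groups alone. The shares of all probe sets called under these settings are not given here, so these smaller counts have no baseline.

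Aortic smooth muscle cells were compared with day 13 GFP+ cells as the primary counterpart. Tdgf1 was lower in the aorta (log2 difference -1.65, SE 0.238, which is 3.15-fold, with adjusted p = 4.06e-05) and Acvr2b by -0.93 (1.91-fold, SE 0.224, adjusted p = 0.00363). Thus 2 of the 9 genes fell and 0 rose, near the 19.5% of all probe sets that were lower (17.7% were higher and 37.2% passed in all). The groups did not overlap for the same 2 genes, against 44.9% of all probe sets. The levels of Tdgf1 in GFP+ cells (4.44) and the aorta (2.78) lie near or under the sample medians. The aortic level of Acvr2b (4.42) lies near them too, and none of these levels is shown to lie above background. The other 7 had differences between -0.14 for Nodal and 0.35 for Lefty1, with adjusted p from 0.393 (Lefty1) to 0.935 (Foxh1) and overlapping samples. Aortic samples also held higher levels than GFP+ cells of 4 of 5 endothelial markers (averages 5.92 to 6.39 against 4.39 to 4.58), 3 of 5 leukocyte markers (4.65 to 5.16 against 3.89 to 4.08) and 3 of 6 fibroblast markers (8.46 to 9.24 against 6.55 to 7.43). Another fibroblast marker, the collagen gene Col1a1, was lower in the aorta (9.48 against 11.16). The part of these markers in the differences was not tested.

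The other pathway genes in the aorta comprised 5 of 42 higher and 11 lower, against 17.7% and 19.5% of all probe sets. These 16 calls of 42 lie near the 37.2% of all probe sets that passed. Inhba rose from 5.16 to 7.38 (4.65-fold, adjusted p = 5.18e-07), and the activin antagonist gene Fstl3 from 6.77 to 8.73 (3.89-fold, adjusted p = 1.53e-08). Tgfbr3, which encodes the inhibin co-receptor betaglycan, rose 7.14-fold, Tgfbr1 1.88-fold and Pmepa1 1.76-fold. Mstn passed as lower, with 2.09, 1.67 and 2.28 in the aorta against 2.98, 5.68 and 5.75 in GFP+ cells. GFP+ sample 3 lay far below the other GFP+ samples, and the aortic levels of Mstn are not shown to lie above background. Tmeff1 fell 12.2-fold, Bambi 3.56-fold and Furin 3.31-fold. Of the 10 target genes 2 fell, Lhx1 among them (2.49-fold). Among transducers and regulators Tgif1 (-1.16), Smad2 (-0.90) and Tgif2 (-0.63) fell, the last of these not under cyclic loess, and Acvr1 (-1.05) and Gdf11 (-0.58) fell as well.

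For the 7 genes whose group means spanned at least 2 log2 units, the genes with the most similar course over the 15 samples were sought among 19697 named genes, by the root mean square (RMS) difference after centring each gene on its own mean. For Gdf3 these were Prss42 (RMS 0.212), the epithelial factor Grhl2 (0.227) and Glod5 (0.233). For Lefty2 they were Sycp1, a protein of meiotic chromosomes (0.317), Lncenc1 (0.33) and the phosphatase gene Inpp5d (0.334), and for Lefty1 Urah (0.314), Rpl10l (0.338) and Glp1r (0.34). The genes closest to Nodal were Grb7 (0.233), Tmem102 (0.248) and Baz2a (0.26), and those closest to Acvr2b were Dnajc9 (0.204), Zfp568 (0.231) and Stoml2 (0.238). For Foxh1 they were the polarity gene Pard6b (0.449), Lrrn4 (0.536) and Tnfrsf19 (0.581). The gene nearest to Tdgf1, the pluripotency factor gene Nanog, differed by 1.20, where the SD of Tdgf1 itself over the samples was 3.21. Zfp979 (1.30) and H2ac11 (1.33) came next. Nanog stood at 9.98 at day 0, 7.42 at day 5, 4.41 in GFP- cells, 3.79 in GFP+ cells and 3.60 in the aorta, so it was already lower at day 5, when Tdgf1 was still at 10.22.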

How the data were processed

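The samples were extracted with QIAzol, and biotin-labelled RNA was run on the Affymetrix Mouse Gene 2.0 ST array, per the labels. The deposited values are RMA expression values on the log2 scale. The submitters' processing notes name affy 1.36.1 and R 2.15.1, and the scale follows from the values themselves (0.663 to 12.5). The build behind the probe sets is not stated. Of 25206 probe sets, named by Entrez Gene ID, 23740 matched the RefSeq table.

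One linear model with 5 group means took all 15 samples (limma 3.58.1, R 4.3.3; 10 residual and 5.09 prior degrees of freedom). Benjamini-Hochberg adjustment covered every probe set within a comparison, at a threshold of 0.05. Errors are standard errors or 95% intervals of the log2 difference. Scripts were tested on simulated data. Alternatives changed the scaling, the weights, the samples fitted, the low-value filter and the block.

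The deviations of equally numbered samples from their group means correlated across genes at 0.397 to 0.597 between the day 13 sorts, so their numbers were taken to pair them and a fit with a replicate block is also given. Number 5 of 1 sort and number 6 of the other also correlated, at 0.345 and 0.278, against 0.403 and 0.397 with their own numbers. The pairing of numbers 5 and 6 thus rests on a small margin. The 9 genes, the pathway list (43 genes, 42 with a probe set), the markers and the naming rule were chosen with earlier results of these data known. The target list shares Foxa2 and Sox17 with the endoderm markers and T, Mixl1 and Mesp1 with the early mesoderm markers. In each pathway list the genes named per comparison were those with the largest change past the threshold, up to 3. Others were named where a count was spelled out, and some beyond that. One gene of the pathway list is counted but not reported here by name.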

Additional observations from a re-analysis of the deposited data

How the results depend on the processing

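Median centring and repeated quantile normalization shifted sample medians by up to 0.107, and cyclic loess by up to 0.151. These scalings changed the sign of 0 called differences of the 9 genes. Outside day 13 the samples share only a number. The correlations of equally numbered samples there were -0.014 to 0.0679, and every sample correlated best with its own number only for GFP+ and day 5. With the replicate block the calls among the 9 were 8 at day 5 (Tdgf1 and Acvr2b added), 3 in GFP- against day 5 and 5 in GFP+ against day 5 (Lefty2 added). The share of all probe sets called with the block is not given for these comparisons. The added calls are therefore not set against those of the whole array.

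Between the sorts the 9 genes gave 5 calls with the replicate block or with array weights, 1 in the fit of the 2 groups alone and 0 under limma's treat, which tests for a log2 change above 1. Under treat they gave 2 calls in GFP+ against day 5 and 0 in the aorta. The 42 other genes under treat gave 9 calls at day 5, 4 in GFP- and 11 in GFP+ against day 5, 1 between the sorts and 7 in the aorta, and 5 between the sorts in the fit of the 2 groups alone. Leaving out 1 sample at a time gave 1 to 3 calls of the 9 and 6 to 11 of the 42 between the sorts. Between the sorts 8.45% of all probe sets passed with the replicate block, and shares under the other settings are not given here.

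The values that changed sign passed neither in the fit of all samples nor in the alternative. Acvr1b at day 5 became -0.0020 under repeated quantile normalization and -0.041 under cyclic loess. Lefty2 in the aorta became -0.056 and -0.0083 under the same settings. Nodal in GFP- against day 5 became -0.047 after median centring, -0.019 after quantile normalization and -0.12 with array weights. In the aorta Foxh1 became -0.020 after median centring and -0.026 after quantile normalization, Acvr1b 0.095 after cyclic loess and Acvr2a -0.066 with array weights. With 1 sample left out, the ranges were -0.23 to 0.22 for Nodal and -0.43 to 0.021 for Acvr2a in GFP- against day 5, -0.10 to 0.018 for Gdf3 in GFP+ against day 5 and -0.43 to 0.057 for Acvr2a between the sorts. In the aorta they were -0.11 to 0.27 for Lefty2, -0.10 to 0.17 for Foxh1, -0.28 to 0.065 for Acvr1b and -0.13 to 0.29 for Acvr2a. The causes of these moves were not tested. The falls of Gdf3, Lefty1 and Lefty2 rest on later levels near or under the sample medians. So do the falls of Tdgf1 and Foxh1 in GFP+ and aortic cells, and the lowest levels of Nodal and Acvr2b. These levels are not shown to lie above background. In GFP- cells the means of Tdgf1 (5.20) and Foxh1 (5.67) lay above every sample median.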
